A study of Mus musculus with 27 samples.

Results

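The interferon response genes are 47 mouse genes that are known to be switched on by interferons, and they were taken by gene symbol from a list that was drawn up with earlier results of these data known. All 47 were found among the 27178 genes listed in the study, 1 of them (Ddx58 on the list, the RNA sensor RIG-I) under its current symbol Rigi through its Entrez identifier. The study sequenced messenger RNA of 27 mouse libraries in 3 tables of 9, each table with 3 groups of 3 libraries. The liver table held liver of healthy mice, liver of mice with fibrosis induced by CCl4 (carbon tetrachloride, which is toxic to hepatocytes), and liver of CCl4 mice given an extract of the brown seaweed Sargassum japonica. The in vivo fibrosis table held organoids, which are cultures grown from liver tissue in a gel, from mice given mineral oil (the CCl4 vehicle), from CCl4 mice, and from CCl4 mice with the extract added to the culture for 24 h. The in vitro fibrosis table held organoids of healthy mice left untreated, treated with TGF-β1 (transforming growth factor beta 1, a profibrotic cytokine) for 24 h, or given TGF-β1 for 24 h followed by the extract for another 24 h. All organoids had spent 4 to 5 days in differentiation medium before treatment. The labels state no strain, age or dose, no harvest time for organoids given TGF-β1 alone, and not whether the 3 libraries of a group came from separate animals or cultures, so each p-value here reflects only how far these libraries scatter, which could be technical scatter.

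Interferons bind receptors on the cell surface, whose kinases JAK1 and TYK2 phosphorylate STAT proteins. Type I and type III interferons act mainly through a complex that includes STAT2 and IRF9 and binds the interferon-stimulated response element (ISRE) in promoters, and interferon gamma acts mainly on promoters with the gamma-activated site (GAS). The induced proteins block viruses, sense foreign RNA, attach the ubiquitin-like protein ISG15 to other proteins and raise antigen processing. In liver, hepatocytes, bile duct cells and immune cells can all respond.

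Levels are given as CPM, read counts per M reads (M is mega) of the authors' effective library size, and the libraries held 44.5 to 64.8 M reads. Changes are log2 fold changes of the deposited log2 values with their standard error (SE), and a gene was called changed when limma's p, adjusted by Benjamini-Hochberg over all genes tested in that table, was under 0.05. Past the filter on low reads were 47 members in liver, 44 in the in vivo organoids (Ifitm3, Zbp1 and Gbp3 were too low) and 46 in the in vitro organoids (Zbp1 was too low). The hepatocyte marker list summed to between 95900 and 135000 CPM in liver. In the organoid libraries all 6 cholangiocyte and progenitor markers were above 1 CPM in every group, with sums of 4690 to 10600 CPM, while the leukocyte markers Ptprc, Coro1a and Laptm5 summed to at most 0.757 CPM, except for 4.4 CPM in 1 library. Untreated replicate 3 and TGF-β1 plus extract replicate 3 stood apart from the other libraries of the in vitro table, and mineral oil replicate 1 was high for several members.

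Organoids from CCl4 mice held far less RNA of most interferon response genes than organoids from mineral oil mice. Of the 44 members tested, 36 fell and 0 rose, whereas 40.2% of all 14836 genes were called, 20.4% higher and 19.8% lower. The median log2 fold change was -1.95 over the members and 0.035 over all genes. In 37 members every CCl4 library lay below every mineral oil library, as did 21.9% of all genes. Of the 36 that fell, 12 fell by 4 or more on the log2 scale, 10 by 2 to 4, and 14 by less than 2. In bulk RNA, fewer responding cells and less RNA per cell cannot be told apart.

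**Figure D1:**
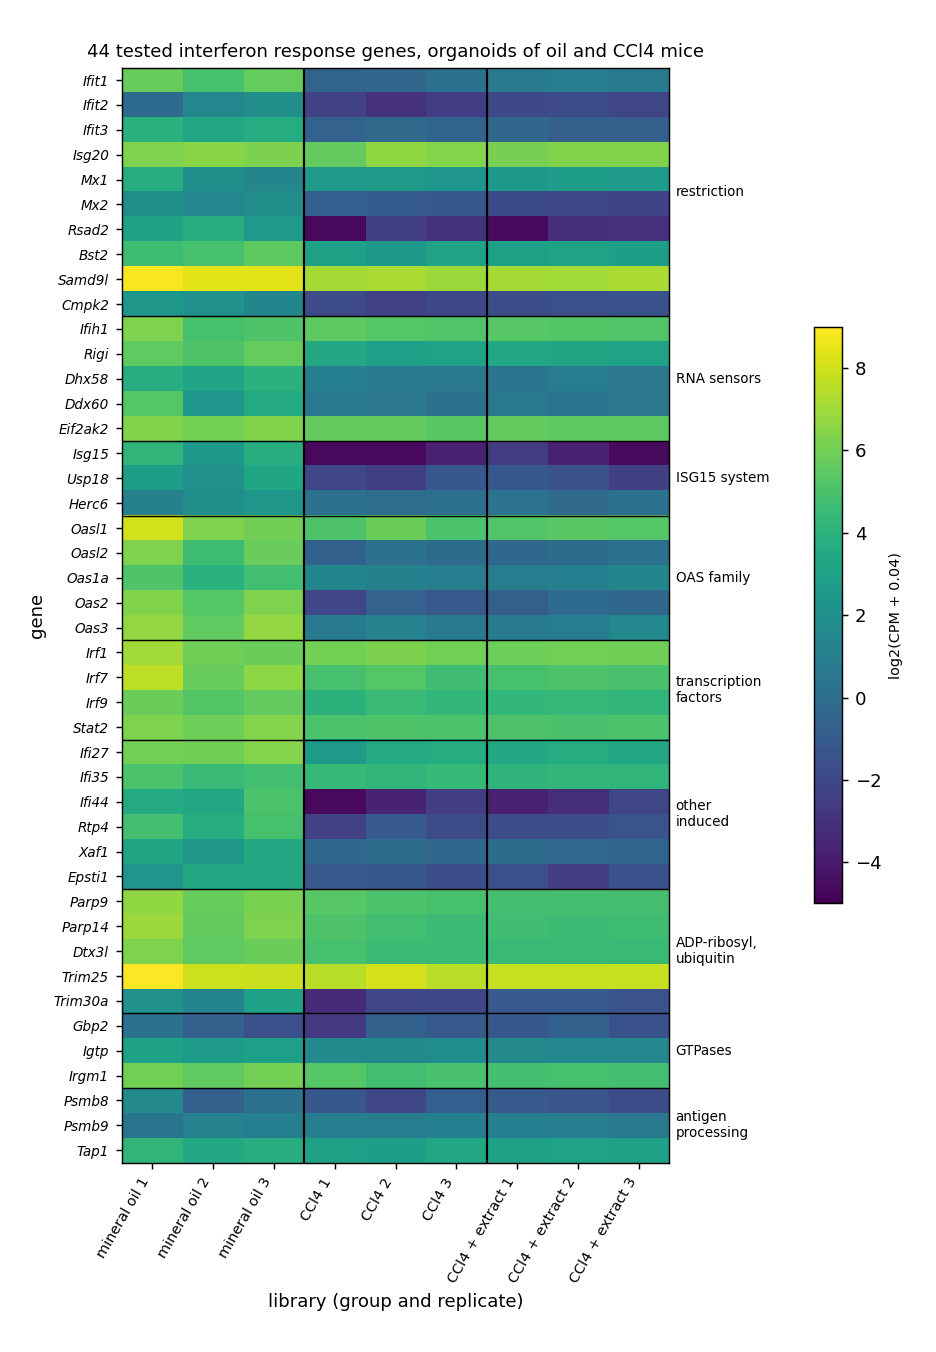
Level of the 44 tested members as log2(CPM + 0.04) in each of the 9 in vivo organoid libraries, with genes in rows grouped by role and libraries in columns. The 3 mineral oil columns are brighter than the 6 CCl4 columns for most genes, and Irf1, Isg20 and Ifih1 are among the genes with like colors throughout.

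The ISG15 system fell in all 3 of its members. Isg15, which encodes the ubiquitin-like modifier itself, stood at 17.8, 5.58 and 13.4 CPM in the mineral oil organoids and at 0, 0 and 0.0356 CPM in the CCl4 organoids. The groups were 1777 and 2 reads in sum, so that Isg15 was 948-fold lower after CCl4 (95% exact interval 262 to 7830, counting error only), and the fitted log2 fold change was -7.82 ± 0.63 (SE, limma adjusted p = 0.000103). Usp18, the protease that removes ISG15 and dampens the type I receptor, fell by 4.61 on the log2 scale, and Herc6, the ligase that attaches ISG15 in mice, fell by 1.71.

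All 5 members of the oligoadenylate synthetase (OAS) family, enzymes whose product activates the RNA-cutting enzyme RNase L, fell, with a median log2 fold change of -5.43. Oas2 stood at 81.5, 39.3 and 77.9 CPM in the mineral oil organoids and at 0.207, 0.625 and 0.427 CPM in the CCl4 organoids, a log2 fold change of -7.21 ± 0.43 (SE). Oas3 went from 105, 48.3 and 108 CPM to 1.76, 2.29 and 1.58 CPM, a change of -5.43 ± 0.35. For both enzymes the lowest mineral oil library was far above the highest CCl4 library. Oasl2, a family member with a ubiquitin-like tail, stood at 79.8, 25.0 and 54.8 CPM against 0.601, 1.19 and 0.942 CPM (log2 fold change -5.71 ± 0.42). Oas1a fell by 3.47 on the log2 scale. Oasl1, which restrains translation of Irf7, fell least, at 266, 78.7 and 63 CPM against 33.7, 57.8 and 33 CPM (-1.45 ± 0.49, adjusted p = 0.0462, limma).

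Of the 10 tested RNA-binding and restriction proteins, which bind or block viral RNA and particles, 8 fell. Ifit1, which binds viral RNA ends, stood at 53.9, 30.1 and 52.6 CPM in the mineral oil organoids and at 0.643, 0.729 and 1.17 CPM in the CCl4 organoids (log2 fold change -5.68 ± 0.29, limma adjusted p = 1.69e-05). Its relative Ifit3 went from 15.4, 10.5 and 12.6 CPM to 0.622, 0.854 and 0.675 CPM (-4.08 ± 0.23), and Ifit2 fell by 3.72. Reads of Ifit1 and Ifit3 may be shared with their near-identical neighbours, as may those of Oas1a with its family, so the split between copies is uncertain. Rsad2 (viperin, which makes a chain-ending nucleotide) and its neighbour Cmpk2 (a nucleotide kinase) fell by 6.47 and 3.98. Cmpk2 was at 5.18, 4.23 and 2.63 CPM against 0.249, 0.167 and 0.213 CPM. Bst2 (tetherin, which holds budding virus at the membrane) stood at 25, 30 and 45.5 CPM against 7.77, 5.54 and 8.46 CPM, a change of -2.18 ± 0.24. The groups did not overlap in any of these genes.

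Samd9l, a growth and virus restriction factor, was at 457, 343 and 350 CPM in the mineral oil organoids and at 136, 149 and 120 CPM after CCl4, a log2 fold change of -1.50 ± 0.13. Mx2, a dynamin-like GTPase, fell by 2.79. Its relative Mx1 did not pass the test, with 12.6, 3.82 and 2.55 CPM against 5.8, 6.23 and 5.07 CPM (log2 fold change 0.19 ± 0.50, limma adjusted p = 0.791). The exonuclease gene Isg20 did not pass either, at 78.6, 90.6 and 74.6 CPM against 49.9, 102 and 83.5 CPM. In both of these genes the groups overlapped. Ifitm3, which blocks virus entry, could not be compared because it held 1 read in the 9 in vivo organoid libraries together, while it ranged from 294 to 488 CPM in liver.

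Among the RNA sensors 4 of 5 tested fell. Rigi, which detects short double-stranded RNA, stood at 48, 35.2 and 51.1 CPM in the mineral oil organoids and at 10.8, 7.46 and 8.59 CPM in the CCl4 organoids (log2 fold change -2.32 ± 0.18). Dhx58 and Ddx60, helicases that work with it, fell by 2.80 and 3.20, and Eif2ak2 (PKR, which halts translation) fell by 0.68. Ifih1 (MDA5, the sensor of long double-stranded RNA) was not called, at 78.4, 30.1 and 35.2 CPM against 45.6, 40.1 and 36.4 CPM.

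Of the 4 transcription factors of the list, 3 fell. Irf7, the amplifier of type I interferon induction, was at 192, 54.3 and 97.8 CPM in the mineral oil organoids and at 30.7, 40.3 and 25.6 CPM in the CCl4 organoids (log2 fold change -1.67 ± 0.40, adjusted p = 0.0118, limma). Stat2 went from 77.9, 60 and 84.3 CPM to 33, 35.3 and 33.1 CPM (-1.12 ± 0.12), and its partner Irf9 fell by 1.35. Irf1, a factor of the interferon gamma branch, was at 133, 63 and 58.4 CPM against 66.1, 74.6 and 66 CPM (-0.20 ± 0.28, adjusted p = 0.603, limma). The mineral oil libraries other than replicate 1 lay below the CCl4 libraries for Irf1, whereas for Stat2 and Irf7 all 3 lay above.

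Of the other groups, all 6 remaining induced genes fell, from Ifi44 at -7.57 ± 0.69 to Ifi35 at -0.42 ± 0.15 on the log2 scale. Rtp4, a chaperone of membrane receptors, stood at 29.7, 12.9 and 30.7 CPM against 0.166, 0.458 and 0.249 CPM, a change of -6.20 ± 0.43. Of the ADP-ribosylation and ubiquitin genes, 4 of 5 fell: Trim30a by 4.57, Parp14 by 1.46, and the partners Dtx3l and Parp9, whose annotated spans overlap, by 1.23 and 1.10. Trim25, a ubiquitin ligase, ran from 234 to 493 CPM in the mineral oil organoids and from 178 to 278 CPM in the CCl4 organoids and was not called.

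Of the 3 tested interferon-inducible GTPases, which are best known as targets of interferon gamma, 2 fell, Igtp by 1.17 and Irgm1 by 0.87. Gbp2 was near the detection limit, at 1.12, 0.564 and 0.3 CPM against 0.124, 0.604 and 0.444 CPM, and did not pass (log2 fold change -0.74 ± 0.62, adjusted p = 0.373, limma). Of the antigen processing genes, the peptide transporter Tap1 fell by 0.71, and the immunoproteasome subunit Psmb9 did not pass (0.05 ± 0.24). Its fellow subunit Psmb8 stood at 2.99, 0.564 and 1.09 CPM against 0.415, 0.208 and 0.533 CPM and just missed the threshold (-1.67 ± 0.59, adjusted p = 0.0537, limma).

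**Figure D2:**
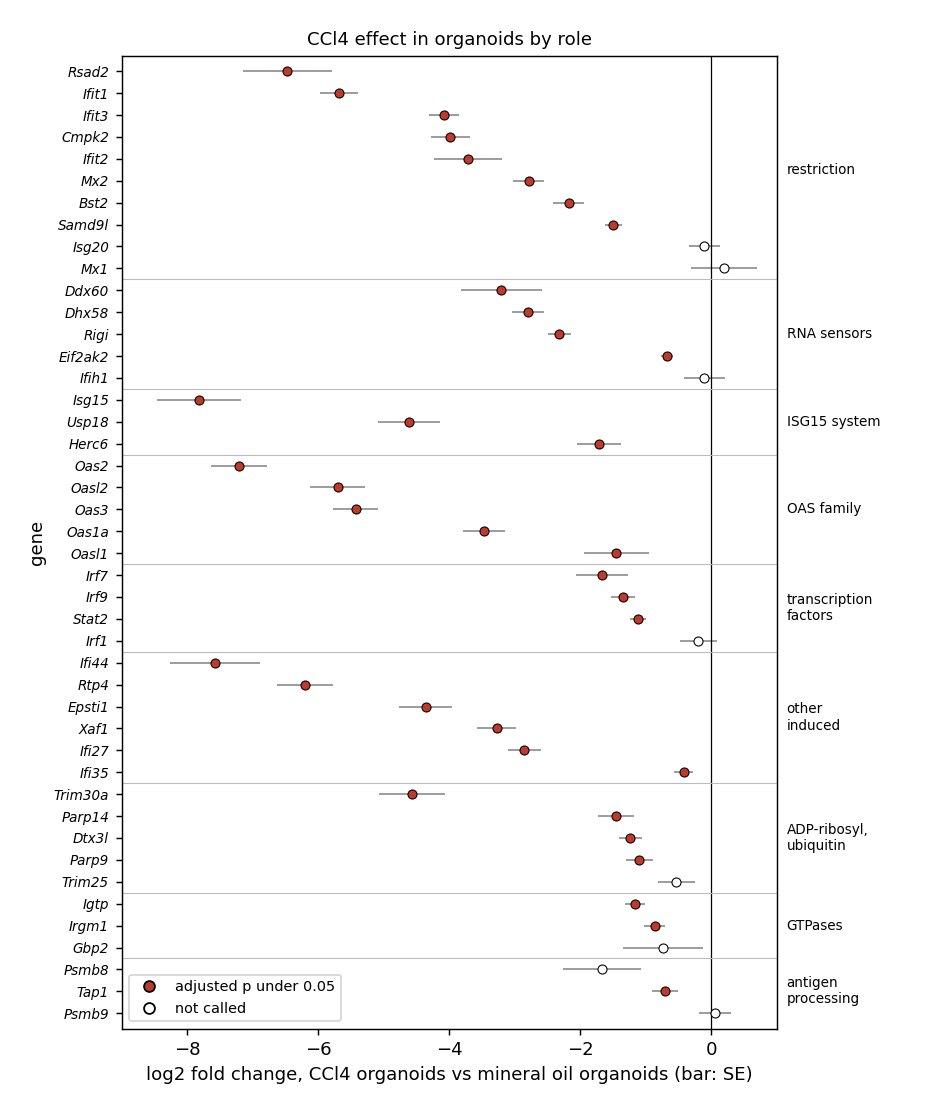
Log2 fold change of CCl4 against mineral oil organoids for each tested member, with its SE as a bar and genes grouped by role. Filled points passed the limma test and open points did not; the lowest values are those of Isg15 at -7.82, Ifi44 at -7.57 and Oas2 at -7.21.

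Leaving out mineral oil replicate 1 left the fall in place. Without it, 35 members fell and 2 rose, the latter Mx1 (log2 fold change 0.86) and Ifih1 (0.32), and the median over the members was -2.17, but more of all genes were called as well, 60.7% in all, 31.7% higher and 29% lower. Ifi35 was the only one of the 36 whose call was lost. Irf7 and Oasl1, both high in that library, changed by -1.20 and -0.81 without it, and both still passed. Over the alternatives of scaling, filter, pseudocount, weights, block and left-out libraries the number of members changed ran from 33 to 37.

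Promoter sequence is shown for 4 examples of members that fell by over 4 on the log2 scale and hold the ISRE core upstream of their start site. Irf1, picked by name, is shown as a member that was not called. Oas3 and Ifit3 met the same description and are not printed. The annotated span of the same gene covers this stretch in Ifit3 and a part of it in Oas3. The sequences are RefSeq's, on build GRCm38.p6 (the assembly of mm10), in the direction of the gene, and cover the 180 bases before its start. Capitals mark matches on either strand to the ISRE core, which is GAAA, then any NN, then GAAA again, or in Irf1 to the GAS core, which is TTC, NNN, GAA. Isg15 is at chr4:156200819-156200998 on the minus strand, Rsad2 at chr12:26456453-26456632 on the minus strand, Ifit1 at chr19:34640709-34640888 on the plus strand and inside the annotated spans of Ifit1bl1 and Ifit1bl2, Trim30a at chr7:104465194-104465373 on the minus strand, and Irf1 at chr11:53769834-53770013 on the plus strand.
Isg15: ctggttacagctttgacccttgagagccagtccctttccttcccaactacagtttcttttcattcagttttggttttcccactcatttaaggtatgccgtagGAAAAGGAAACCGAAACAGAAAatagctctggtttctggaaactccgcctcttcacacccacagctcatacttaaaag
Rsad2: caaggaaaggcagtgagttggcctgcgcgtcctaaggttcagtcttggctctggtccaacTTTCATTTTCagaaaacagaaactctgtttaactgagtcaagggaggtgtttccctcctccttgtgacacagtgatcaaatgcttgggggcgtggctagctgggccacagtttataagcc
Ifit1: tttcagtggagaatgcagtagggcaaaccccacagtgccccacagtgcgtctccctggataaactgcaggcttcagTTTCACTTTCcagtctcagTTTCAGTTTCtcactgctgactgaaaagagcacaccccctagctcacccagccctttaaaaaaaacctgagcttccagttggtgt
Trim30a: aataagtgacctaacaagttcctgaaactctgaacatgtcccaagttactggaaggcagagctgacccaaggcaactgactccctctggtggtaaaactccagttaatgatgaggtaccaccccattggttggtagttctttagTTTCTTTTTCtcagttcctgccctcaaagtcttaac
Irf1: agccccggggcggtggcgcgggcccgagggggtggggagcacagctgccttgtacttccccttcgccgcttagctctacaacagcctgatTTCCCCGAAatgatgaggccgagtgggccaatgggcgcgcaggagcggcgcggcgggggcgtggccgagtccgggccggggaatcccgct

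In Isg15, 3 overlapping matches form one run, while Ifit1 holds 2 matches a few bases apart and Irf1 holds a GAS match and no ISRE match in this stretch. RefSeq windows of 250 bases before to 50 after the start were at hand for 37 of the 47 members. The ISRE core was found on either strand in 18 of these 37 (48.6%) and in 3.99% of all 27025 genes with such a window, and the GAS core in 10 (27%) against 9.55%. Of all 32851 single windows, 3.44% held the ISRE core and 8.3% the GAS core. Of the 16 tested members with an ISRE core, 14 fell in the CCl4 organoids, with a median log2 fold change of -2.76 and a range from -7.82 to -0.11. Of the 19 without one, 14 fell, with a median of -1.50 and a range from -7.57 to 0.05. A match describes these letters only, and the 2 medians were not compared by a test. The printed examples do not stand for all members. Ifi44 (-7.57), Oasl2 (-5.71) and Epsti1 (-4.36) fell without an ISRE core, and Ifih1 and Gbp2 hold one and were not called. Of the members with a GAS core, Ifit2, Oas1a, Bst2, Igtp, Eif2ak2 and Ifi35 fell. Irf1, Isg20 and Psmb8 hold a GAS core and were not called.

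Upstream of the members, the interferon genes themselves were at or near 0. Of 10 interferon genes looked at, 5 (Ifna1, Ifna2, Ifna4, Ifna5 and Ifnl2) had 0 reads in all 27 libraries, where a count of 0 allows up to 0.0496 to 0.0721 CPM a library. Ifnb1 had 3 reads in 2 libraries, Ifng 8 reads in 3, and Ifnl3 4 reads, all in 1 library. Ifne reached 0.299 CPM in its highest library and Ifnk 0.166 CPM.

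Of the 6 receptor genes, 3 fell in the CCl4 organoids. Ifnlr1, the specific chain of the type III receptor, stood at 54.1, 65.1 and 68.9 CPM in the mineral oil organoids and at 27.5, 33.4 and 30 CPM after CCl4 (log2 fold change -1.04 ± 0.11). The type I receptor chains Ifnar1 and Ifnar2 went from 66.8 ± 2.0 and 11 ± 3.3 CPM to 42.9 ± 1.8 and 3.98 ± 0.75 CPM (SD, n = 3). The gamma receptor chains were not called, with Ifngr1 at 406 ± 133 against 550 ± 41 CPM and Ifngr2 at 91.8 ± 47.9 against 108 ± 13 CPM (SD, n = 3), nor was Il10rb, the second type III chain, at 61.5 ± 12.0 against 69.6 ± 5.1 CPM.

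The kinase gene Jak1 stood at 218, 193 and 194 CPM in the mineral oil organoids and at 102, 110 and 102 CPM in the CCl4 organoids (log2 fold change -0.94 ± 0.07, adjusted p = 8.6e-05, limma). Tyk2 did not pass the test (0.15 ± 0.11). A wider list held 107 other interferon pathway genes, of which 81 were tested. Of these, 40 fell and 7 rose, beside 19.8% and 20.4% of all genes, with a median of -0.45 over the list. Among its 37 tested further induced genes 26 fell and 1 rose, and of its 11 antigen presentation genes 2 fell and 1 rose. The smallest p-values among those that fell belonged to Jak1, the GTPase gene Gbp9 (-2.65) and Ifit3b (-3.98), a copy of Ifit3. Among those that rose they belonged to Ptpn2, a phosphatase that restrains the JAK kinases (0.63), Tbk1, a kinase that activates IRF3 (0.67), and the peptide-trimming enzyme gene Erap1 (0.65).

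The summed macrophage and cholangiocyte lists moved with the members and the hepatocyte list the other way. The 6 cholangiocyte and progenitor markers summed to 7720 to 8840 CPM in the mineral oil organoids and to 5930 to 6560 CPM in the CCl4 organoids. Among them Sox9 (57.9 ± 23.3 against 13.8 ± 5.85 CPM), Spp1 (167 ± 66.3 against 31.5 ± 13.6 CPM), Krt7 and Cldn4 were lower without overlap, while Epcam and Krt19 overlapped (SD, n = 3). The 12 macrophage markers summed to 29.7 to 117 CPM in the mineral oil organoids and to 11.1 to 19.2 CPM in the CCl4 organoids, with 2 and 3 of the 12 above 1 CPM, and Adgre1, Fcgr1, Vsig4, Marco and Timd4 had no read in either group. Csf1r, at 20.3, 97.6 and 103 CPM against 4.25, 5.6 and 11.6 CPM, made up most of the sum in mineral oil organoids, while Itgam went the other way, from 0.814 ± 0.368 to 2.71 ± 1.37 CPM (SD, n = 3). The 3 leukocyte markers summed to 0.214 to 0.757 CPM against 0.166 to 0.458 CPM, and the 9 T and NK markers to at most 0.0711 CPM. The hepatocyte list summed to 284 to 1240 CPM against 1550 to 2320 CPM, with 3 and 4 of its 6 markers above 1 CPM. Its marker Cyp2e1 went the other way, with reads in the mineral oil organoids and none in the CCl4 organoids. The part of the cells behind these 3 lists in the fall was not tested.

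Adding the extract to CCl4 organoids for 24 h called 0 of the 44 members, and 0% of all 14836 genes, by limma, by limma with voom weights and under every other setting run. At an unadjusted p under 0.05 were 3 members and 271 genes. The median log2 fold change of the members was 0.01. The 3 with the smallest p were Mx2, at 0.518, 0.479 and 0.391 CPM without and 0.241, 0.217 and 0.177 CPM with the extract (-1.0 ± 0.24), Ifit1, at 1.75, 1.81 and 1.75 CPM with the extract (1.07 ± 0.29), and Trim30a (1.23 ± 0.50), each with a limma adjusted p of 0.9998.

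The 9 genes followed through all tables were not called, and apart from Ifit1 (above) their values were as follows. Isg15 was at 0.13, 0.0361 and 0 CPM, Oasl2 at 0.798, 0.921 and 1.06 CPM, and Bst2 at 7.78, 8.34 and 7.26 CPM in the extract-treated organoids. Irf7 was at 29.8, 34.6 and 32.1 CPM, Stat2 at 33.5, 31.9 and 33 CPM, and Irf1 at 59.1, 66 and 61.8 CPM. Gbp2 and Psmb8 stayed under 1 CPM, at 0.409, 0.596 and 0.314 CPM and at 0.446, 0.361 and 0.255 CPM. Against the mineral oil organoids, which both comparisons share, the extract-treated organoids had 36 of 44 members lower and 0 higher (34.4% of all genes called, 17.2% lower), with a median of -1.89. In that comparison Isg15 changed by -7.12, Oas2 by -6.40, Ifit1 by -4.61 and Mx2 by -3.79, beside -7.82, -7.21, -5.68 and -2.79 without the extract.

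In liver tissue, CCl4 moved the same genes by much less and in both directions. Of the 47 members, 10 rose and 10 fell in CCl4 liver against healthy liver, where 54.2% of all 15037 genes were called, 28.7% higher and 25.5% lower. The median log2 fold change was 0.08 over the members and 0.00 over all genes. The split depends on the scaling: with library size alone 27 rose and 2 fell, while the median over all genes moved to 0.38 and the calls over all genes to 7261 higher and 1384 lower (57.5% in all, 48.3% and 9.2%). Of the 10 that fell, Irf9 and Irgm1 were also called lower with library size alone, and Trim25 turned positive there without a call.

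Of the 10 that rose, 3 belong to the OAS family (Oas1a, Oas2 and Oasl2) and 4 to the restriction factors (Ifit2, Samd9l, Bst2 and Mx1). Oas1a was at 2.96, 2.86 and 3.59 CPM in healthy and at 6.2, 6.01 and 8.44 CPM in CCl4 liver (log2 fold change 1.11 ± 0.17, limma adjusted p = 0.000194). Oasl2 went from 4.91, 6.25 and 6.76 CPM to 8.42, 8.32 and 11.1 CPM (0.63 ± 0.17). Ifit2 rose from 4.3, 4.95 and 4.09 CPM to 7.77, 8.44 and 8.46 CPM (0.89 ± 0.14). In these genes no CCl4 library overlapped the healthy ones. Every CCl4 library lay above every healthy library in 11 of the 47 members and in 30.7% of all genes. Every CCl4 library lay below in 10 members and in 28.7% of all genes. Samd9l was at 15.9, 19.5 and 10.8 CPM against 31.5, 34.7 and 31.3 CPM (1.11 ± 0.18), and Epsti1, a gene of epithelial and stromal interaction, at 3.09, 3.41 and 4.04 CPM against 5.95, 6.45 and 7.63 CPM (0.92 ± 0.17). Bst2 stood at 131, 108 and 142 CPM against 165, 147 and 162 CPM (0.32 ± 0.11, adjusted p = 0.0263, limma), a call that was lost without healthy replicate 2, without CCl4 replicate 1 or without CCl4 replicate 3. Oas2, Rigi, Trim30a and Mx1 rose by 0.51, 0.31, 0.67 and 0.60. All 10 also rose with library size as the scaling.

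Ifit1 and Ifit3 fell beside the rise of Ifit2. Ifit1 stood at 6.29, 5.24 and 6.47 CPM in healthy and at 2.51, 3.84 and 3.6 CPM in CCl4 liver (log2 fold change -0.87 ± 0.23, adjusted p = 0.00701, limma), but at -0.49 it was not called with library size alone. Irf9 went from 32.3, 32 and 39.9 CPM to 21.4, 21.6 and 23.1 CPM (-0.65 ± 0.10), and Irgm1, a GTPase of autophagy and interferon gamma defence, from 50.1, 51 and 67.6 CPM to 34.2, 39 and 32.7 CPM (-0.66 ± 0.12). These 2 fell under both scalings. The remaining 6, namely Ifit3, Mx2, Igtp, Dtx3l, Parp9 and Ifi35, changed by -0.63 to -0.44, and Trim25 by -0.36.

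The other genes followed through all tables were not called in CCl4 liver. Isg15 was at 6.42, 5.36 and 9.34 CPM in healthy and 4.73, 5.47 and 6.89 CPM in CCl4 liver, Irf7 at 29.1, 31.1 and 37.9 against 25.5, 29.5 and 25.2 CPM, and Stat2 at 98.2, 90.8 and 88.9 against 89.3, 81.5 and 75.1 CPM. For Gbp2 the values were 5.35, 5.36 and 4.96 against 5.13, 6.24 and 6.13 CPM, for Psmb8 23.5, 16.5 and 25.5 against 24.6, 21 and 27 CPM, and for Irf1 27.3, 22.6 and 24.7 against 19.7, 26.8 and 21.4 CPM. Their log2 fold changes lay between -0.29 and 0.16. Of the 96 tested genes of the wider pathway list, 32 rose and 29 fell, where 28.7% of all genes rose and 25.5% fell. The leading ones were Il10rb (1.46), Sting1, the adaptor of DNA sensing (1.67), and Irf8, a factor of myeloid cells (1.27), among those that rose, and Iigp1 (-1.29), Mavs, the adaptor of RIG-I (-0.89), and Irgm2 (-0.87) among those that fell.

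Of the other pathway genes, Ifnlr1 rose in CCl4 liver (log2 fold change 2.68 ± 0.53) from a level of 0.153 ± 0.118 CPM (SD, n = 3), Ifngr1 and Ifngr2 rose by 0.92 and 0.46, and Ifnar2 fell by 0.47. Ifnar1, Jak1 and Tyk2 were not called, at 48.3 ± 3.9, 140 ± 17 and 27.6 ± 0.7 CPM in healthy liver (SD, n = 3). The 12 macrophage markers summed to 610 to 827 CPM in healthy and 1410 to 1630 CPM in CCl4 liver, the 3 leukocyte markers to 37.1 to 49.2 and 124 to 145 CPM, and the 6 hepatocyte markers to 113000 to 130000 and 95900 to 101000 CPM. The stellate and myofibroblast markers summed to 170 to 204 CPM in healthy and 688 to 996 CPM in CCl4 liver, the cholangiocyte and progenitor markers to 28.7 to 44 and 174 to 404 CPM, and the neutrophil markers to 4.12 to 7.16 and 16.5 to 24.4 CPM. Their part in the changes was not tested.

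In CCl4 mice given the extract, 6 members were higher in liver than in CCl4 mice without it and 0 lower, where 19.1% of all genes were called, 9.33% higher and 9.76% lower. The 6 were Ifit1, Ifit3, Rsad2, Mx2, Parp9 and Irgm1, and 5 of them (all but Rsad2) had been lower in CCl4 than in healthy liver, a comparison that shares the CCl4 libraries. Ifit1 stood at 5, 8.67 and 5.19 CPM with the extract against 2.51, 3.84 and 3.6 CPM without it (log2 fold change 0.89 ± 0.23, adjusted p = 0.0185, limma). Ifit3 was at 8.78, 9.24 and 7.89 CPM against 4.35, 5.52 and 5.36 CPM (0.77 ± 0.16, adjusted p = 0.00578, limma). In both genes the groups did not overlap. Every library with the extract lay above every CCl4 library without it in 18 of the 47 members and in 20.8% of all genes. Every one lay below in 4 members and in 21.6% of all genes. Rsad2 went from 6.32, 8.37 and 5.39 CPM to 11.9, 15.1 and 8.72 CPM (0.82 ± 0.21), Mx2 from 4.15, 3.99 and 3.71 CPM to 5.76, 5.23 and 6.18 CPM (0.53 ± 0.15), and Parp9 and Irgm1 rose by 0.33 and 0.38.

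These calls were fragile. With library size as the scaling 3 members were higher (Ifit1, Ifit3 and Rsad2) and 3 lower (Psmb8, Psmb9 and Ifi27), where 28.2% of all genes were called, 4.26% higher and 23.9% lower, and the median over all genes moved from 0.00 to -0.23. Leaving out 1 library gave 1 called member without extract replicate 2, 2 without CCl4 replicate 1 or without CCl4 replicate 3, 3 without extract replicate 1 or without extract replicate 3, and 7 without CCl4 replicate 2, while 9.66% to 19.3% of all genes were called. Ifit3 was called each time.

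The other followed genes were not called. With the extract Isg15 was at 6.27, 7.51 and 6.49 CPM, Oasl2 at 13.5, 11.7 and 10.2 CPM, Bst2 at 151, 141 and 159 CPM, and Irf7 at 30.5, 33.8 and 30 CPM. Stat2 was at 92.2, 88.5 and 95 CPM, Irf1 at 23, 23.7 and 26.9 CPM, Gbp2 at 6.31, 6.83 and 6.7 CPM, and Psmb8 at 20.5, 19.7 and 21 CPM. Of the 96 genes of the wider list, 13 were higher and 1 lower, beside 9.33% and 9.76% of all genes. The lower one was the RNA exonuclease gene Pnpt1 (-0.41). The leading ones that rose were H2-K1, a class I antigen-presenting molecule, at 1170, 1170 and 1290 CPM against 789, 821 and 747 CPM (0.62 ± 0.12), Trafd1, a feedback regulator of innate signalling (0.47), and Cd74, the class II invariant chain (0.71). With the extract the macrophage markers summed to 1330 to 1540 CPM, the leukocyte markers to 112 to 125 CPM and the hepatocyte markers to 117000 to 135000 CPM. Their part in these calls was not tested.

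Against healthy liver, 14 members were higher and 1 lower in extract-treated CCl4 liver (34.8% of all genes called, 21.1% higher and 13.6% lower). The higher ones included Oas2 (1.07), Mx1 (1.05), Oas1a (0.99), Oasl2 (0.98), Ifit2 (0.94), Samd9l (0.83) and Trim30a (0.74), and the lower one was Irf9 (-0.44). With library size alone 18 were higher and 0 lower, where 31% of all genes were called, 25.4% higher and 5.59% lower, with the median over all genes at 0.13. Leaving out extract replicate 2 gave 9 higher and 1 lower (17.4% and 8.5% of all genes), and leaving out healthy replicate 2 gave 10 higher and 4 lower (20.1% and 12.2%), the latter Irf9, Ifitm3, Igtp and Ifi35.

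The CCl4 effect differed between organoids and liver in 35 of 44 members, each with the lower value in organoids, where 54.2% of 13116 genes tested in both tables differed, 26.9% in that direction. The test was the difference of both fold changes in a single limma fit over 18 libraries. The controls were unlike, with healthy mice in liver and mineral oil mice in organoids, and their part in the difference was not tested. The 6 smallest p-values belonged to Oas2 (difference -7.73 ± 0.48), Oas3 (-5.82 ± 0.40), Oasl2 (-6.34 ± 0.47), Rigi (-2.63 ± 0.20), Ifit3 (-3.49 ± 0.27) and Rtp4 (-5.82 ± 0.47). Of the 10 members that rose in CCl4 liver, 9 fell in CCl4 organoids, namely Bst2, Epsti1, Ifit2, Oas1a, Oas2, Oasl2, Rigi, Samd9l and Trim30a, and Mx1 was not called. Of the 10 that fell in CCl4 liver, 9 also fell in CCl4 organoids, and Trim25 was not called. A further 18 fell in the organoids with no call in liver. As 36 of the 44 members fell in the organoids, the direction in liver did not set these members apart. The share of all genes in each of these classes was not counted.

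**Figure D3:**
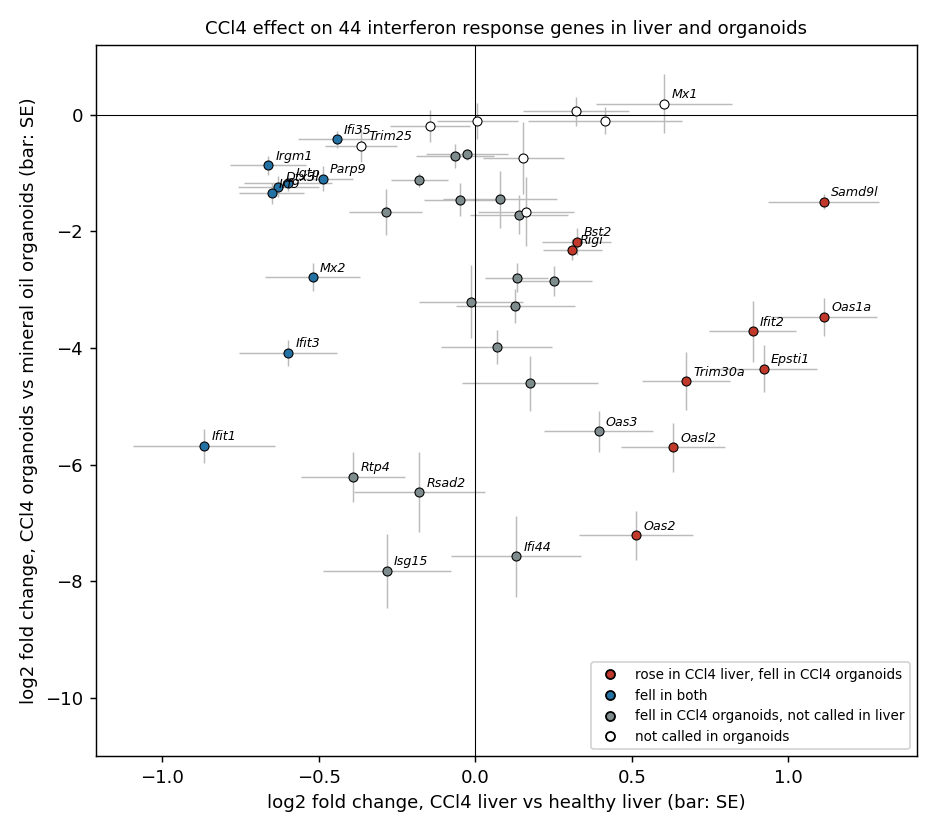
Log2 fold change of CCl4 against healthy liver (horizontal axis) and of CCl4 against mineral oil organoids (vertical axis). The 44 members tested in both are shown, with SE bars and colors for the calls of each comparison. The points spread to both sides of 0 in liver, from -0.87 (Ifit1) to 1.11 (Oas1a), but lie mostly below 0 in organoids, down to -7.82 (Isg15).

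The extract effect differed between organoids and liver in 2 members, Mx2 (difference -1.53 ± 0.26) and Ifit3 (-1.0 ± 0.27), with 7.08% of all genes differing, 2.41% in that direction. Mx2 was called without any single library, whereas the count was 1 without CCl4 liver replicate 1 or 3, without any 1 of the 3 extract livers, without CCl4 organoid replicate 2 or 3, or without extract organoid replicate 2 or 3, and 3 without mineral oil organoid replicate 1, while 3.24% to 14.4% of all genes differed.

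In the TGF-β1 experiment no member was called in any of the 3 comparisons by limma, with or without voom weights. With TGF-β1 against untreated organoids 0.0212% of all 14125 genes were called, with TGF-β1 plus extract against TGF-β1 0%, and with TGF-β1 plus extract against untreated 0.0142%. At an unadjusted p under 0.05 were 8, 0 and 13 members, and 1747, 272 and 1303 genes. The medians of the members' log2 fold changes were -0.28, -0.27 and -0.58, beside 0.01, -0.01 and 0.01 over all genes.

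Untreated replicate 3 and TGF-β1 plus extract replicate 3 set the spread of these groups. Oasl1 was at 1.7, 1.88 and 13.4 CPM in the untreated organoids, at 1.01, 1.1 and 0.906 CPM with TGF-β1 and at 0.931, 1.3 and 7.97 CPM with TGF-β1 and extract. Samd9l was at 545, 594 and 236 CPM, at 466, 503 and 529 CPM, and at 537, 529 and 267 CPM in the same order. Oas3 was at 36.7, 30.7 and 21.8 CPM, at 26.9, 24 and 23 CPM, and at 28.7, 24.1 and 2.28 CPM. Both libraries were high for Oasl1 and low for Samd9l, and the extract library was lowest for Oas3. Ifitm3 was at 0 to 0.332 CPM in 7 libraries but at 22.9 CPM in untreated replicate 3 and 2.69 CPM in TGF-β1 plus extract replicate 3.

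**Figure D4:**
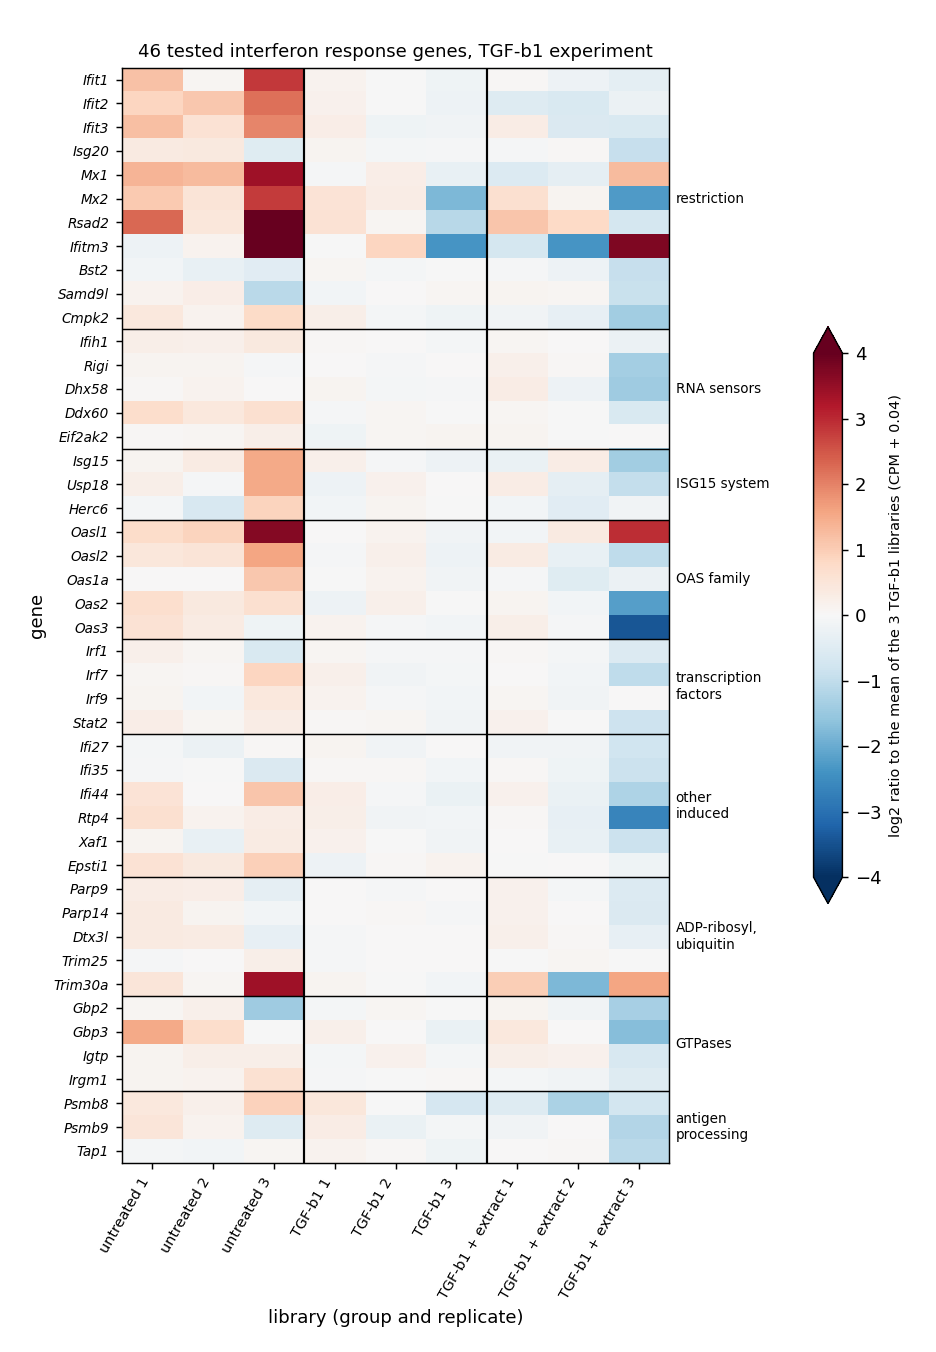
Level of the 46 tested members in each library of the TGF-β1 experiment as log2 ratio to the mean of the 3 TGF-β1 libraries, with 0.04 CPM added and colors capped at 4 in both directions. The columns of untreated replicate 3 and TGF-β1 plus extract replicate 3 differ from all others, the former with the darkest reds (Rsad2, Ifitm3, Oasl1) and the latter mostly blue apart from Ifitm3, Oasl1, Mx1 and Trim30a.

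Without both libraries, 14 members fell and 0 rose with TGF-β1, where 23.4% of all genes were called, 11.9% lower. Leaving out untreated replicate 3 alone gave 0 member calls in this comparison. The fit then held 2 untreated, 3 TGF-β1 and 2 extract-treated libraries. Isg20 was at 132 and 134 CPM untreated and at 112, 97.4 and 100 CPM with TGF-β1 (log2 fold change -0.37 ± 0.06). Dtx3l was at 81.8 and 79.7 against 62, 64.7 and 64.1 CPM (-0.34 ± 0.05), and Ifit2 at 1.19 and 1.39 against 0.726, 0.632 and 0.54 CPM (-0.99 ± 0.29). The others were Oas2, Oas3, Oasl1, Ifit3, Mx1, Gbp3, Parp9, Parp14, Epsti1, Ifih1 and Samd9l, with changes from -1.33 (Mx1) to -0.19 (Samd9l). With TGF-β1 plus extract against untreated, 9 fell and 0 rose (13.7% of genes called, 7.89% lower), and between TGF-β1 with and without extract 0 members and 0 genes were called. The leukocyte markers, at 4.4 CPM in sum in TGF-β1 plus extract replicate 3 and 0.116 to 0.258 CPM in the untreated and TGF-β1 libraries, were not tested for a part in this.

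The values of the followed genes in the untreated, TGF-β1 and TGF-β1 plus extract organoids were as follows. Ifit1 was at 7.42, 3.48 and 23.5 CPM, then 3.63, 3.24 and 2.91 CPM, then 3.38, 2.8 and 2.46 CPM, and Isg15 at 1.33, 1.58 and 3.59, then 1.45, 1.2 and 1.08, then 1.02, 1.54 and 0.452 CPM. Oasl2 was at 2.87, 2.99 and 6.21, then 2.02, 2.38 and 1.81, then 2.6, 1.68 and 1 CPM. All 3 of these genes were highest in untreated replicate 3. Irf7 was at 14.1, 13.8 and 23.9, then 15.2, 12 and 12.5, then 13.4, 12.2 and 6.56 CPM, and Stat2 at 47.2, 41.3 and 48.1, then 40, 41.5 and 35.7, then 43.9, 38.8 and 22.2 CPM. Bst2 was at 42.9, 37.7 and 33.2, then 49, 43.8 and 45, then 44, 40.1 and 24.4 CPM, and Irf1 at 116, 108 and 66.7, then 108, 98.4 and 99.1, then 105, 97 and 69.8 CPM. For these 4 genes TGF-β1 plus extract replicate 3 was the lowest or next to lowest library. Gbp2 was at 9.07, 9.85 and 3.17, then 8.09, 9.14 and 8.46, then 9.24, 7.77 and 3.36 CPM, and Psmb8 at 0.964, 0.811 and 1.38, then 0.988, 0.698 and 0.424, then 0.476, 0.271 and 0.402 CPM.

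Of the receptors and kinases in the untreated and TGF-β1 organoids, Ifnlr1 was at 88.2 ± 26.8 and 114 ± 3 CPM, Ifnar1 at 79.8 ± 7.5 and 85.8 ± 3.7 CPM, and Jak1 at 137 ± 6 and 131 ± 4 CPM (SD, n = 3). None of the 82 tested genes of the wider list was called in the 3 comparisons, with 9, 0 and 12 of them at an unadjusted limma p under 0.05.

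Set side by side across tables, which were normalized separately and were not tested against each other, the mineral oil organoids had the highest mean of several members. Oasl2 was at 53.2 ± 27.4 CPM in mineral oil, 0.91 ± 0.294 CPM in CCl4 and 4.02 ± 1.89 CPM in untreated organoids, and at 5.97 ± 0.96 CPM in healthy liver (SD, n = 3). Irf7 was at 115 ± 71, 32.2 ± 7.5, 17.3 ± 5.8 and 32.7 ± 4.6 CPM in the same order, and Oas2 at 66.2 ± 23.4, 0.42 ± 0.209, 21.4 ± 2.1 and 7.66 ± 1.25 CPM. For Irf7 the spread of the CCl4 organoids and the healthy liver overlapped. Psmb8 was highest in liver, at 21.9 ± 4.7 CPM in healthy liver and 1.55 ± 1.28 CPM or less in each organoid group.

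**Figure D5:**
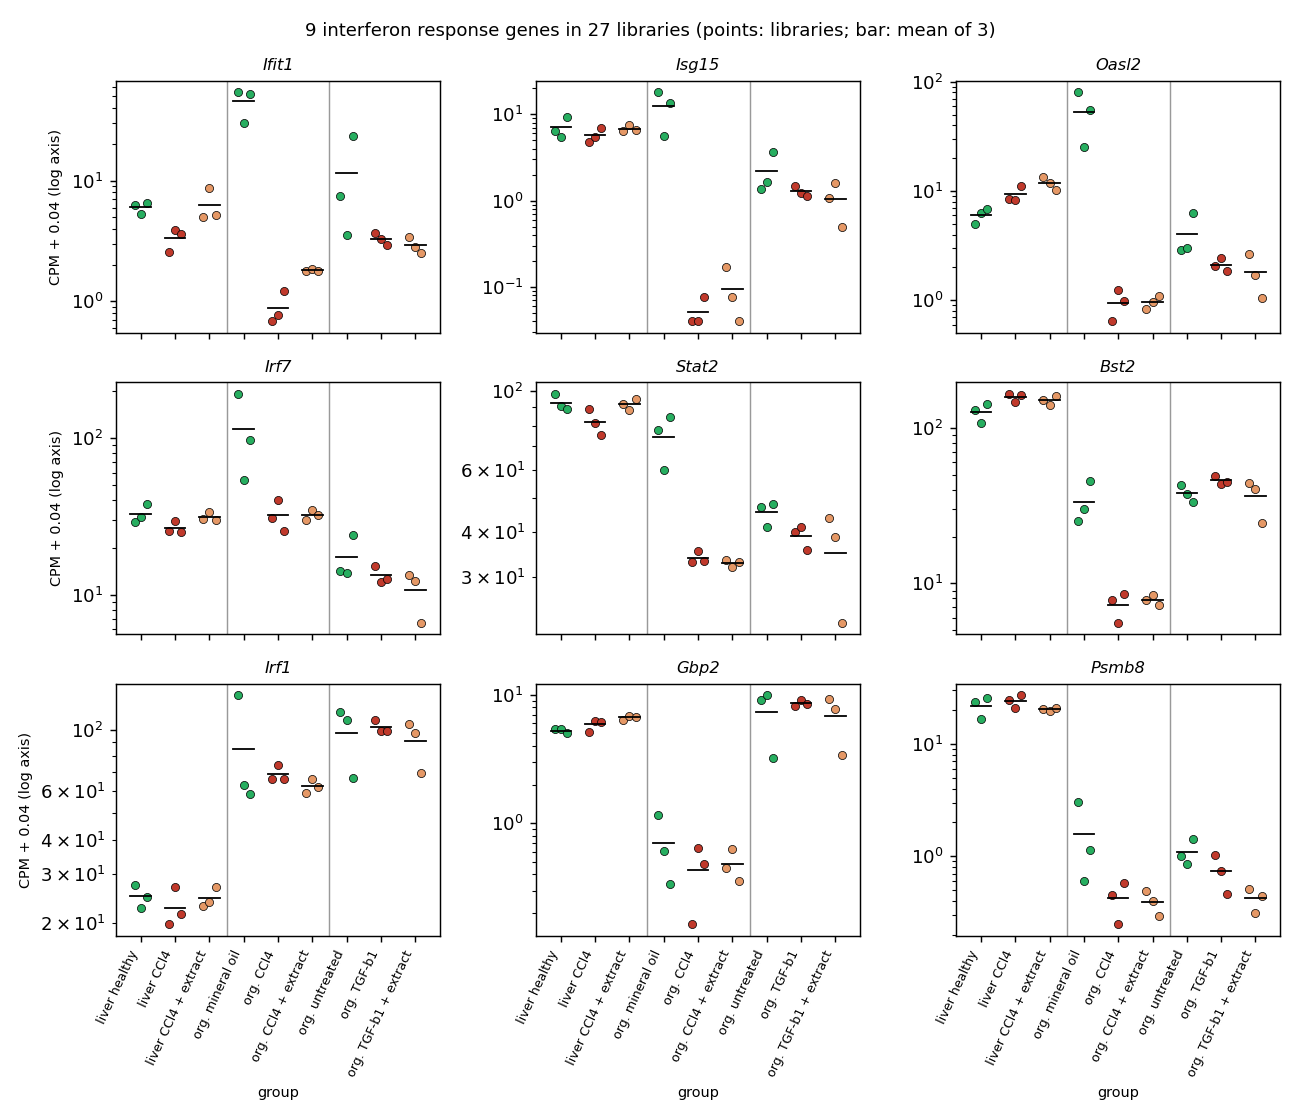
Level of 9 members in all 27 libraries as CPM + 0.04 on a log axis, in 3 liver groups and 6 organoid groups, with points for libraries and bars for the mean of 3. Ifit1, Isg15 and Oasl2 drop from the mineral oil to the CCl4 organoids, Isg15 to 0 CPM in 2 libraries (drawn at 0.04), while Irf1 stays between 58.4 and 133 CPM in those 2 groups.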

How the data were processed

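The members and gene lists were chosen with earlier results of these data known. Libraries were made from 1.2 µg of RNA with a stranded TruSeq mRNA kit, per the labels' protocols, and the genome build was mm10 according to the submitters' processing notes. Aligner, counter, strand setting and annotation were not given in the sources used here. Deposited values are log2 CPM of an effective library size (read total times a scaling factor of the authors, 0.854 to 1.217) with a prior count of 2. Taking off the prior count gave whole reads for 100% of values (within 0.05), and CPM was computed from these reads.

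Genes entered a test with the CPM of 10 reads in a median library in at least 3 libraries and at least 15 reads in all, which left 15037 genes in liver, 14836 in the in vivo and 14125 in the in vitro organoids. limma 3.58.1 in R 4.3.3 fitted a mean per group to the log2 values of the 9 libraries of a table (trended variance, two-sided), and recovered changes put into simulated reads. Values by library are given for 9 members followed through all tables (Ifit1, Isg15, Irf7, Stat2, Oasl2, Bst2, Gbp2, Psmb8, Irf1) and for up to 6 further called members with the smallest p, and for other pathway genes up to 3 in each direction; other members and pathway genes with values were picked after these were seen. Replicate numbers of untreated and TGF-β1 plus extract organoids correlated by 0.531, 0.583 and 0.717 in their deviations. The highest correlations with another number were 0.578, 0.504 and -0.575, so replicate 1 did not match its own number best. These groups were also fitted with the number as a block, which called 0 members as before. In no other comparison did every same-numbered pair exceed 0.1. Alternatives were no filter, 2 other scalings, log2(CPM + 1), voom weights, the groups compared alone, the block and each library left out.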

Additional observations from a re-analysis of the deposited data

Results flagged for a closer look

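The tests of a difference between organoids and liver gave the results below, all as log2 differences by limma. The CCl4 effect differed in 35 of 44 members: Oas2 -7.73, Oasl2 -6.34, Oas3 -5.82, Rtp4 -5.82, Epsti1 -5.28, Trim30a -5.24, Ifit2 -4.60, Oas1a -4.58, Ifit3 -3.49, Rigi -2.63, Samd9l -2.61 and Bst2 -2.50 are the 6 with the smallest p and those that rose in CCl4 liver and fell in CCl4 organoids. The extract effect differed in 2 members, Mx2 (-1.53) and Ifit3 (-1.0). The CCl4 effect was measured against healthy liver in tissue and against mineral oil organoids in culture. The part of these unlike controls was not tested. Liver and organoid tables were normalized separately, and tissue and culture hold different cells (cholangiocyte and progenitor markers of 4690 to 10600 CPM in organoids, hepatocyte markers of 95900 to 135000 CPM in liver), whose part in these differences was not tested.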

How the results depend on the processing

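For 52 single-gene values, of which 35 were called in the full fit, 709 of 718 alternative fits kept the direction. Of these 709 fits, 44 lost a call and 7 gained a call. The 9 other fits concern genes that were not called. With library size alone Isg15 (0.10), Irf7 (0.10), Stat2 (0.20) and Irf1 (0.24) turned positive in CCl4 against healthy liver, and Stat2 (-0.06), Gbp2 (-0.05) and Irf1 (-0.11) negative with the extract; this scaling put the median gene at 0.38 and -0.23, and at -0.31 and 0.28 in the CCl4 and extract differences between organoids and liver. Psmb8 turned to -0.03 in CCl4 liver without healthy replicate 2 (up to 0.29 over left-out libraries), and Irf1 to 0.18 in CCl4 organoids without mineral oil replicate 1 (down to -0.41). Counts of changed members stayed within 1.5 times except for the following. The extract in liver gave 1 to 7 members (6 in the full fit) over left-out libraries. TGF-β1 and TGF-β1 plus extract against untreated gave 14 and 9 without both libraries that stood apart. The extract difference between organoids and liver gave 1 without a filter, with library size alone, with voom weights and with the replicate block, and 1 to 3 over left-out libraries; leaving out mineral oil replicate 1 there was chosen after seeing the data. The replicate block gave 35 members in CCl4 organoids, 20 in CCl4 liver and 5 with the extract in liver. Apart from the extract difference between organoids and liver, it changed no count by over 1.5 times. Same-numbered libraries did not consistently deviate together in these comparisons, but this check cannot show whether the numbers pair samples. Depth limits Isg15, Rsad2 and Ifi44 in CCl4 organoids, each at 12 reads or fewer in 3 libraries.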
